A study of Mus musculus with 12 samples.

Results

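The genes described here serve protein folding in the endoplasmic reticulum (ER) and the unfolded protein response, the signalling that starts when folding falls behind. They came from a list of 40 genes with 11 chaperones and cochaperones, 4 protein disulfide isomerases, 2 genes of ER entry, 8 genes of ER-associated degradation, 6 sensors and ER membrane factors, 4 transcription factors and 5 targets of the integrated stress response. For 38 of the 40, a probe set on the array named that gene and no other. All 38 lay above the limit for dim signals, a mean log2 signal of 3.93, which 19985 of 30063 genes passed. The probe sets of Manf, a secreted ER protein, and Pdia4, a disulfide isomerase, named a second gene as well (Rbm15b and Mir704), so these 2 genes were given no value.

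The ER folds the proteins that a cell secretes, and hepatocytes secrete most of the plasma proteins. Chaperones of the ER lumen bind unfolded chains, disulfide isomerases form and reshuffle their disulfide bonds, and chains that fail to fold are returned to the cytosol and degraded. The membrane sensors IRE1, PERK and ATF6 detect unfolded protein. IRE1 splices the Xbp1 mRNA, cleaved ATF6 enters the nucleus, and both raise chaperone and degradation genes, while PERK slows translation and favours synthesis of ATF4, which drives the integrated stress response. An array of mRNA levels shows neither the splicing of Xbp1 nor the cleavage of ATF6.

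The 12 mice (strain C57BL/6J -Oca2p-un/J) were 3 months old, and each liver was measured on 1 array. Groups of 4 mice, 2 females and 2 males in each, received water (control), silver nanoparticles of 20 nm coated with citrate (cit-AgNPs), or the same size coated with polyvinylpyrrolidone (PVP-AgNPs). The particles were given by gavage at 4 mg of silver per kg on each of 7 days, and the livers were taken 24 h after the last dose. The small number of arrays sets the precision of these values, and in whole liver fewer cells of a type and less RNA per cell cannot be told apart.

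Of 19985 genes tested with limma, 1 passed an adjusted p of 0.05 in citrate against control, 8 in PVP against control, 0 in PVP against citrate and 435 in females against males. PVP replicates 1 and 4 had the lowest areas under the curve that separates exon from intron control probe sets, 0.778 and 0.794, against 0.804 to 0.842 on the other 10 arrays. Of 10 hepatocyte markers with a probe set, 9 averaged a log2 signal from 19.898 to 19.93, at or next to the ceiling. Of 12 pancreatic acinar markers 9 were not above the limit for dim signals. Of 12 plasma and B cell markers 10 were above it, the highest being Sdc1 with a mean of 8.59, and Tnfrsf17 and Irf4 were not. The next highest was Ighm with 4.95, and Prdm1 and Ms4a1, at 3.95 and 3.94, lay just above the limit. All 11 Kupffer cell markers were above 0 in log2 difference with each coating, and all 11 stellate cell and fibroblast markers below 0, with 0 past the adjusted threshold in limma. Of 10 sinusoidal endothelial markers 8 were below 0 with PVP (median -0.28, smallest adjusted p = 0.0683), 3 of them at an unadjusted p under 0.05, and 9 were below 0 in PVP against citrate. As the log2 of their summed signals, the Kupffer markers ran from 11.80 to 12.995 in control, 11.85 to 13.52 in citrate and 12.16 to 14.65 in PVP livers, and the neutrophil and monocyte markers from 8.34 to 10.39, 9.72 to 10.41 and 9.69 to 12.75. Their part in the results was not tested.

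The promoters of the members show which of them carry the sequence known to respond to ATF6 and XBP1. This ER stress response element (ERSE) reads CCAAT, then 9 bases of any kind, then CCACG. Windows of 300 bases, most of each lying before the gene start, were taken from RefSeq (GRCm38.p6) for 35 of the 40 members, and both strands were searched. The ERSE was present in 9 of 35 members (25.7%) and in 37 of all 27025 genes with a window (0.137%). The 37 include these 9, and the members were listed as genes of this response, so the shares are a description and not a test. The elements are printed 5′ to 3′ on their own strand, with the fixed bases in capitals. They are printed because the correlation of their genes with Hspa5 is given below, and no link between element and correlation was tested.
Hspa5, chr2:34772025-34772043, plus strand, from 65 to 47 bases before the start: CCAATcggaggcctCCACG
Hsp90b1, chr10:86705638-86705656, minus strand, from 212 to 194 bases before the start: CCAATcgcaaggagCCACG
Hsp90b1, chr10:86705533-86705551, plus strand, from 107 to 89 bases before the start: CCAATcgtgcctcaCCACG
Calr, chr8:84847075-84847093, plus strand, from 162 to 144 bases before the start: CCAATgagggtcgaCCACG
Canx, chr11:50325800-50325818, minus strand, from 145 to 127 bases before the start: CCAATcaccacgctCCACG
Dnajc3, chr14:118937827-118937845, plus strand, from 105 to 87 bases before the start: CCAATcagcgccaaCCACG
Creld2, chr15:88819520-88819538, minus strand, from 126 to 108 bases before the start: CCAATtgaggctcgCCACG
Pdia6, chr12:17266491-17266509, plus strand, from 98 to 80 bases before the start: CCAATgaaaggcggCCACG
Syvn1, chr19:6046532-6046550, plus strand, from 44 to 26 bases before the start: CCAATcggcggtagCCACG
Derl3, chr10:75893242-75893260, minus strand, from 156 to 138 bases before the start: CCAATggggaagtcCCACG

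A shorter variant, ERSE-II, reads ATTGG, 1 base of any kind and CCACG, so it shares its last 5 bases with the ERSE. It was found in Herpud1 and Dnajb11, 2 of 35 members (5.71%) against 0.044% of all genes with a window. The C/EBP-ATF site TGATGNAA, which ATF4 and CHOP bind with partners, was found in Atf3, Chac1, Trib3, Asns and Herpud1, 5 of 35 (14.3%) against 4.51%. The unfolded protein response element, searched only as TGACGTGG, was in 0 of 35 member windows and in 0.714% of all. Other spellings were not searched, and the Hspa5 stretch printed below holds TGACGTGA near its left end. With 1 mismatch allowed in the fixed bases, a search added after the exact matches were seen, the ERSE was in 15 of 35 members (42.9%) against 1.72%. A match describes these letters only and is not a binding site, and a window without a match says nothing about the factor.

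Stretches upstream of 4 gene starts are printed on the strand of the gene. They set Hspa5 and Creld2, whose signal followed that of Hspa5, beside Herpud1 and Asns, whose signal did not. Capitals mark the ERSE in Hspa5 and Creld2 (where it lies on the other strand), the ERSE-II and, on the other strand, the C/EBP-ATF site in Herpud1, and the C/EBP-ATF site in Asns. The stretches are chr2:34771930-34772089 (plus strand), chr15:88819486-88819645 (plus strand), chr8:94386269-94386428 (plus strand) and chr6:7693210-7693329 (minus strand).
Hspa5: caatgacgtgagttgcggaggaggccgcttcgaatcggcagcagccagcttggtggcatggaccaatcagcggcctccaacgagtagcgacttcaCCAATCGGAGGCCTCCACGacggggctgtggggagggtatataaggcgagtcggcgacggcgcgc
Creld2: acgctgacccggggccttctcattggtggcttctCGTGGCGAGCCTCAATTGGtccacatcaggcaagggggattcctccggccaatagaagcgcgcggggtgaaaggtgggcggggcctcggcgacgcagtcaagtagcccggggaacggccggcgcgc
Herpud1: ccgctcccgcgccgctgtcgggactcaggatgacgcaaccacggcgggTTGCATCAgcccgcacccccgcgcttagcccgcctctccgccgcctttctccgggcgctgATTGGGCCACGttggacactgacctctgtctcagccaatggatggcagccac
Asns: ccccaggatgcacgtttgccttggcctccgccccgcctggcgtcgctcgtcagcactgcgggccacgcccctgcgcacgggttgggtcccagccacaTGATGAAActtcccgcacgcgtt

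None of the 38 genes passed the adjusted threshold for either coating. With citrate against control, 0 of 38 passed in limma, against 0.005% of all genes, and 0 had an unadjusted p under 0.05, against 6.57%. That count was 2 without citrate replicate 3 (5.53% of all genes) and 1 without PVP replicate 1 (8.2%). The median log2 fold change of the members was 0.01, with 23 above and 15 below 0, and that of all genes was 0.00043. With PVP against control, 0 of 38 passed in limma, against 0.04% of all genes, and 5 had an unadjusted p under 0.05, against 20.3%. It was 10 without PVP replicate 2 (23.6% of all genes), and 3 without control replicate 1 (17.7%), control replicate 3 (14.5%) or PVP replicate 4 (13.8%). The smallest adjusted p was 0.848 with citrate, for Trib3, and 0.126 with PVP, for Atf6b. The PVP median was -0.10, with 13 above and 25 below 0, against -0.0023 over all genes, and both comparisons share the same 4 control mice.

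The PVP median moved with single arrays of either group. It ran from -0.23 without PVP replicate 2, with 7 above and 31 below 0, to -0.0048 without control replicate 1, with 19 above and 19 below. Without both arrays of lowest area, PVP replicates 1 and 4, it was +0.05 and 24 of 38 were above 0. At an unadjusted p under 0.05, 5 members were then higher (4.12% of all genes in that fit) and 1 lower (5.58%). On all 12 arrays 1 member was higher (8.05% of all genes) and 4 were lower (12.2%). Between the coatings, PVP against citrate, 0 of 38 passed in limma, where 0 of all genes did, and 4 had an unadjusted p under 0.05, against 14% of all. This count was 11 without PVP replicate 2 (17.5% of all genes), 2 without citrate replicate 3 (13.3%) and 1 without citrate replicate 1 (9%) or PVP replicate 4 (9.7%). The median was -0.14 there, from -0.28 to -0.03 when 1 array was left out, and +0.07 without both arrays of lowest area. The part of array quality in these differences was not tested beyond leaving the arrays out.

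**Figure D1:**
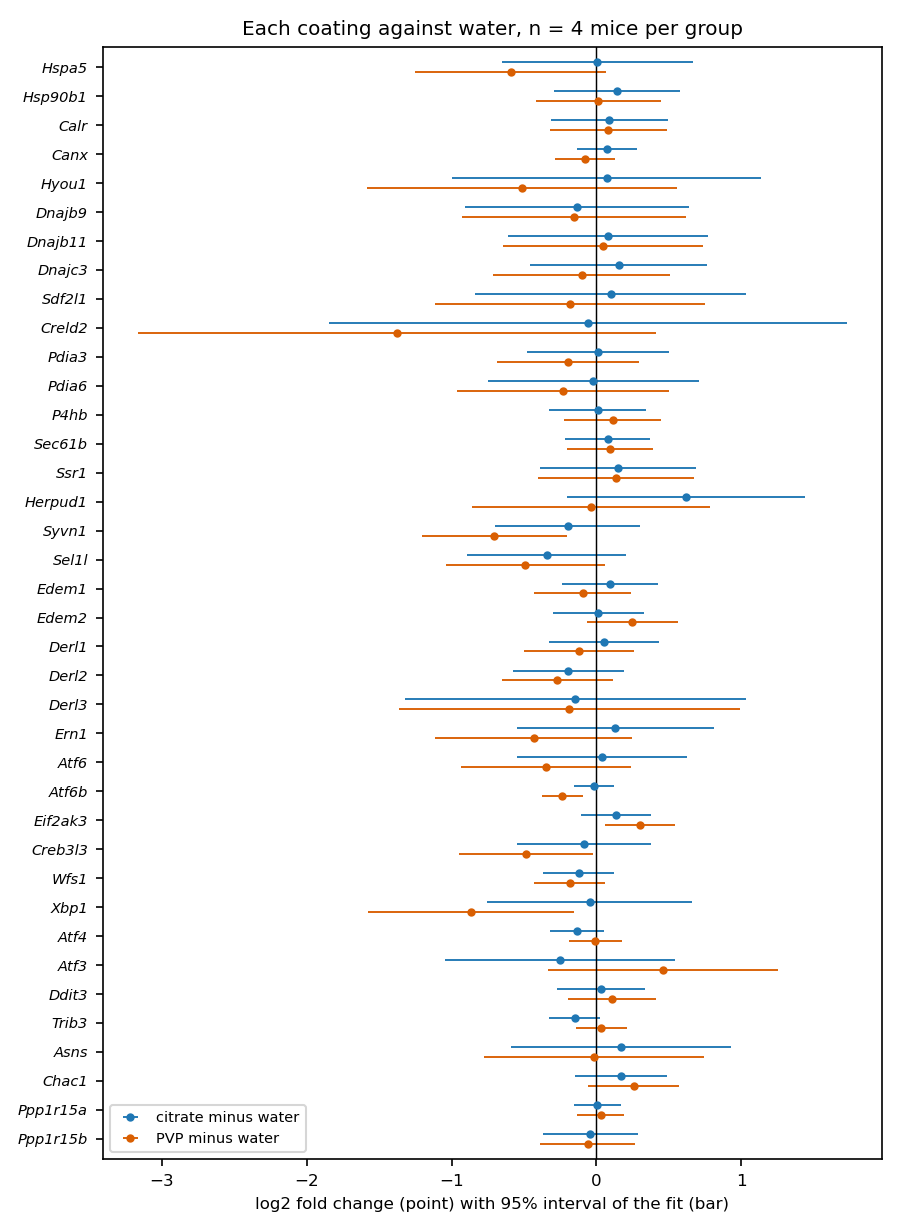
Log2 fold change of each of the 38 genes for citrate (blue) and PVP (orange) against control on the horizontal axis, with the 95% interval of the fit, from 4 mice per group that share their controls. No gene passed the adjusted threshold; with PVP, the intervals of Atf6b, Syvn1, Xbp1 and Creb3l3 lie below 0 and that of Eif2ak3 lies above it.

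The ER genes differed from mouse to mouse within every group. The SD left after group and sex had a median of 0.33 over the 38 genes and 0.18 over all genes tested, and 14 of the 38 lay above the 90th percentile of all genes. The chaperones and isomerases moved together: citrate replicate 3, control replicate 1 and PVP replicate 2 had the highest medians over the 13 measured genes, 0.56, 0.48 and 0.45 above the mean of 12 mice. PVP replicate 1, control replicate 4 and citrate replicate 2 had the lowest, -0.44, -0.41 and -0.32. Thus each group held a mouse of the top 3 and a mouse of the bottom 3. The bottom 3 were all females, and of the top 3 citrate replicate 3 and control replicate 1 were males and PVP replicate 2 a female. The order of the mice described here was seen in the data and was not tested.

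**Figure D2:**
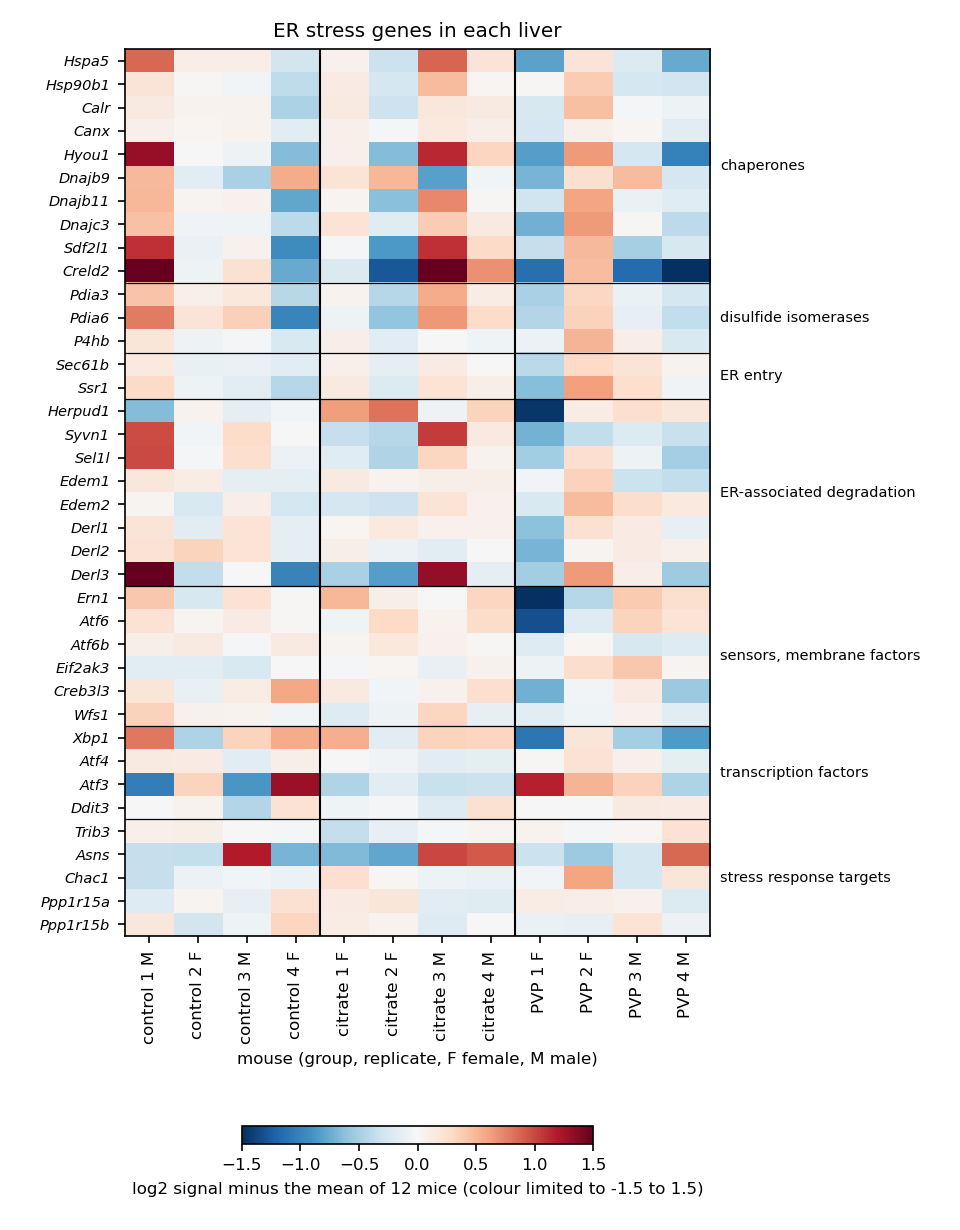
Log2 signal of each member (rows, by role) in each liver (columns, by group, with F for female and M for male) minus the mean of the 12 mice, with the colour limited to -1.5 and 1.5. Control 1, citrate 3 and PVP 2 are red in most chaperone rows and control 4, citrate 2 and PVP 1 are blue, while the stress response targets do not follow these columns.

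Hspa5 encodes BiP, the main ER chaperone of the HSP70 family and the binding partner that holds the sensors inactive. Its log2 signal was 14.78, 14.02, 14.03 and 13.65 in control replicates 1 to 4. It was 13.99, 13.60, 14.79 and 14.12 with citrate and 13.12, 14.11, 13.72 and 13.16 with PVP. Control replicate 1 and citrate replicate 3 were highest, PVP replicates 1 and 4 were lowest, and the groups overlapped. The log2 fold change was 0.0050 with citrate (SE 0.30, limma adjusted p = 1) and -0.59 with PVP (SE 0.30, adjusted p = 0.287). Without PVP replicates 1 and 4 the PVP value was -0.21 (SE 0.32, adjusted p = 0.859).

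Creld2, a secreted ER protein with isomerase activity, had the largest range of the members, 4.29 on the log2 scale. It stood at 12.05, 9.46, 9.75 and 8.77 in the control livers. The citrate livers had 9.31, 8.26, 12.01 and 10.21, and the PVP livers 8.40, 9.99, 8.38 and 7.76. The same control and citrate males as for Hspa5 were far above all other mice, and the groups overlapped. The PVP difference of -1.38 had a 95% interval from -3.17 to 0.41 (limma adjusted p = 0.347). Citrate gave -0.06 (SE 0.81, adjusted p = 1).

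Hyou1, a large HSP70-related chaperone of the lumen, followed the same order. Its signal was 12.10, 10.80, 10.72 and 10.14 in control, 10.87, 10.14, 11.92 and 11.12 in citrate, and 9.97, 11.43, 10.53 and 9.78 in PVP livers. Its log2 fold change was 0.07 with citrate (SE 0.48) and -0.51 with PVP (SE 0.48, limma adjusted p = 0.55). The calcium-binding lectin chaperones differed less between mice, with a range of 0.92 for Calr and 0.40 for Canx. Sdf2l1, a cofactor of the BiP cycle, had a range of 2.04, and the BiP cochaperones Dnajb11 and Dnajc3 had 1.497 and 1.361. Hsp90b1, the ER member of the HSP90 family, had a range of 0.86. Dnajb9, a BiP cochaperone that represses IRE1, had a range of 1.37 but another order, with its highest signal, 13.57, in control replicate 4 and its lowest, 12.20, in citrate replicate 3.

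Of the disulfide isomerases, Pdia3, which serves glycoproteins bound to calnexin and calreticulin, had 15.34, 14.98, 15.07 and 14.50 in control livers. It had 14.96, 14.48, 15.47 and 15.02 with citrate and 14.42, 15.22, 14.81 and 14.64 with PVP. The highest mice were again citrate replicate 3 and control replicate 1, and the groups overlapped. Pdia6 ranged over 1.77 on the log2 scale and P4hb, also a subunit of prolyl hydroxylase, over 0.74. Of the ER entry genes, the translocon subunit Sec61b ranged over 0.71 and Ssr1, of the translocon-associated protein complex, over 1.26.

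**Figure D3:**
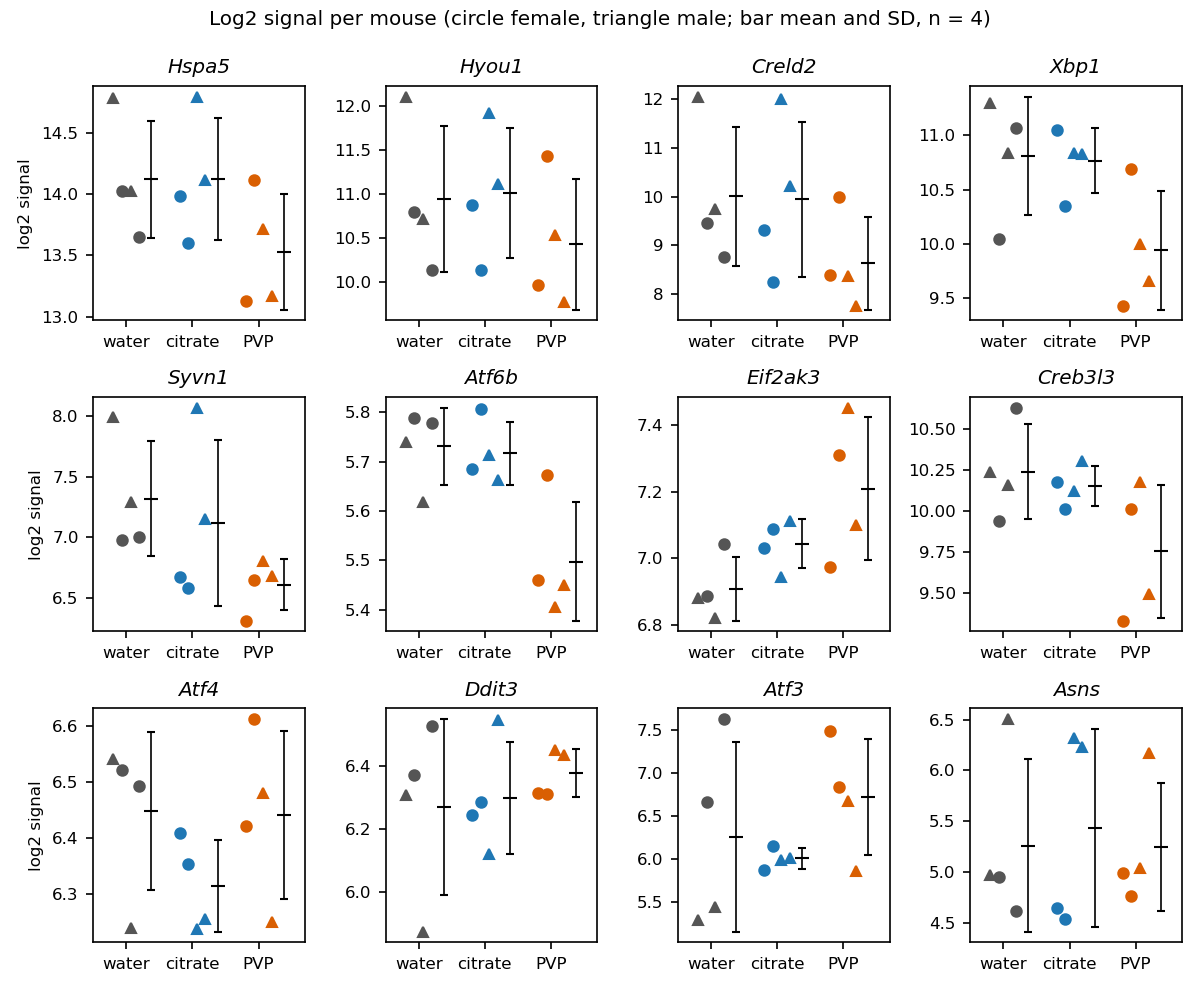
Log2 signal of 12 members in every mouse by group (circles females, triangles males), with the mean and SD of each group of 4 as a bar at its right; the vertical axes differ and do not start at 0. For Hspa5, Hyou1 and Creld2 a male of the control group and a male of the citrate group stand highest, and for Asns 4 males stand above all other mice.

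The degradation genes differed in how closely they followed Hspa5, with a correlation r over the 12 livers from 0.89 for Sel1l to 0.07 for Herpud1. Syvn1 encodes HRD1, the ubiquitin ligase of the ER membrane, and had 7.99, 6.98, 7.29 and 7.00 in control livers. With citrate it had 6.67, 6.58, 8.07 and 7.15, and with PVP 6.31, 6.65, 6.81 and 6.68. All 4 PVP livers lay below all 4 controls, and Syvn1 was the only member whose groups did not overlap in a comparison with control, against 4.92% of all genes lower and 2.98% higher with PVP and 2.37% lower and 1.93% higher with citrate. Its log2 fold change with PVP was -0.71 (SE 0.23, unadjusted p = 0.0102), which did not pass (limma adjusted p = 0.162). Without the 2 arrays of lowest area the value was -0.59 (SE 0.29, adjusted p = 0.563). Citrate gave -0.20 (SE 0.23, adjusted p = 0.999), and PVP against citrate -0.51 (SE 0.23, adjusted p = 0.354).

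Sel1l, the adaptor that stabilises HRD1, stood at 12.16, 11.14, 11.42 and 11.08 in control livers. It stood at 10.99, 10.72, 11.49 and 11.23 with citrate and at 10.65, 11.42, 11.10 and 10.66 with PVP. Control replicate 1 was highest and the groups overlapped, with log2 fold changes of -0.34 for citrate (SE 0.25, limma adjusted p = 0.937) and -0.49 for PVP (SE 0.25, adjusted p = 0.287). Derl3, a channel-related Derlin that ER stress induces, ranged over 2.82, with 7.29 in control replicate 1 and 6.80 in citrate replicate 3. Derl1 and Derl2 ranged over 0.85 and 1.04, and the mannosidase-like Edem1 and Edem2 over 0.72 and 0.79.

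Herpud1 encodes a membrane protein that assembles the degradation complex and is a target of both ATF6 and ATF4. Its signal was 14.74, 15.46, 15.26 and 15.36 in control livers, 16.03, 16.21, 15.33 and 15.73 with citrate, and 13.93, 15.51, 15.65 and 15.57 with PVP. PVP replicate 1 stood far below the rest, and control replicate 1, high in Hspa5, was next lowest. The citrate difference was 0.62 (SE 0.37, limma adjusted p = 0.878) and the PVP difference -0.04 (SE 0.37, adjusted p = 0.963). Without the 2 PVP arrays of lowest area, the citrate difference had an SE of 0.17, an unadjusted p of 0.00585 and an adjusted p of 0.345, and the PVP difference was +0.37 (adjusted p = 0.6).

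Among the sensors, Atf6b, the paralogue of ATF6, had the smallest p of all members in both comparisons of PVP. It had 5.74, 5.79, 5.62 and 5.78 in control, 5.69, 5.81, 5.71 and 5.66 in citrate, and 5.46, 5.67, 5.41 and 5.45 in PVP livers. PVP replicates 1, 3 and 4 lay below all other mice, and PVP replicate 2 lay among the rest. The difference was -0.23 against control (SE 0.06, limma adjusted p = 0.126) and -0.22 against citrate (SE 0.06, adjusted p = 0.258). With PVP replicates 1 and 4 left out, it was -0.19 against control (adjusted p = 0.48).

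Eif2ak3, which encodes PERK, was the member with a positive PVP value and an unadjusted p under 0.05. Its signal was 6.88, 6.89, 6.82 and 7.04 in control, 7.03, 7.09, 6.94 and 7.11 in citrate, and 6.97, 7.31, 7.45 and 7.10 in PVP livers. PVP replicates 2 and 3 were highest, and replicate 1 lay within the control range. The PVP difference was 0.30 (SE 0.11, limma adjusted p = 0.185), and 0.48 without the arrays of lowest area (SE 0.10, adjusted p = 0.29). Citrate gave 0.14 (SE 0.11, adjusted p = 0.958).

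Ern1 and Atf6 had their lowest signals in PVP replicate 1. Ern1, which encodes IRE1, was at 7.74 in PVP replicate 1 and from 8.84 to 9.77 in the other mice, and Atf6 was at 8.99 in that mouse and from 10.11 to 10.64 in the others. Creb3l3, a liver transcription factor held in the ER membrane until cleaved, had a PVP difference of -0.49 (SE 0.21, unadjusted p = 0.0421, limma adjusted p = 0.231). Leaving out those 2 PVP arrays of lowest area gave -0.15. Wfs1, the ER membrane protein of Wolfram syndrome, had -0.19 with PVP (limma adjusted p = 0.354), from 6.62 ± 0.17 in control to 6.44 ± 0.11 in PVP livers (SD, n = 4 each).

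Xbp1, whose spliced mRNA encodes the main transcription factor of secretory capacity, stood at 11.30, 10.05, 10.84 and 11.06 in control livers. Citrate livers had 11.05, 10.34, 10.84 and 10.82, and PVP livers 9.43, 10.68, 9.9995 and 9.66. PVP replicates 1, 3 and 4 lay below all other mice, while PVP replicate 2 lay above control replicate 2 and citrate replicate 2, so the groups overlapped. The difference was -0.87 against control (SE 0.32, limma adjusted p = 0.19) and -0.82 against citrate (SE 0.32, adjusted p = 0.331). Without the arrays of lowest area these values were -0.47 (SE 0.36, adjusted p = 0.695) and -0.42 (adjusted p = 0.846).

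The transcription factors of the PERK branch showed small differences. Atf4, the central factor of the integrated stress response, had 6.54, 6.52, 6.24 and 6.49 in control, 6.41, 6.35, 6.24 and 6.26 in citrate, and 6.42, 6.61, 6.48 and 6.25 in PVP livers. The differences from control were -0.13 with citrate (SE 0.08, limma adjusted p = 0.892) and -0.01 with PVP (SE 0.08, adjusted p = 0.969). Ddit3, which encodes the cell death factor CHOP, had 6.31, 6.37, 5.87 and 6.53 in control livers. It had 6.25, 6.29, 6.12 and 6.55 with citrate and 6.31, 6.31, 6.45 and 6.44 with PVP. Control replicate 3 was the lowest mouse, and the differences were 0.03 with citrate and 0.11 with PVP (SE 0.14 for both; adjusted p = 1 and 0.665). The 95% intervals of the fit were -0.27 to 0.33 and -0.20 to 0.41.

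Atf3, a stress-induced repressor, varied more. Its signal was 5.29, 6.67, 5.45 and 7.63 in control livers, 5.87, 6.16, 6.00 and 6.01 with citrate, and 7.49, 6.84, 6.68 and 5.86 with PVP. Control replicate 4 and PVP replicate 1, both females, were highest, and both control males were lowest. The effect of citrate in females minus that in males was -1.76 (SE 0.52, unadjusted p = 0.00852), which did not pass (limma adjusted p = 1). In that comparison 1 of 38 members had an unadjusted p under 0.05, against 2.45% of all genes, and 0 of 38 passed, where 0 of all genes did. The count was 2 without control replicate 1 (2.44% of all genes), control replicate 3 (2.6%), citrate replicate 2 (2.31%) or citrate replicate 3 (1.97%). The citrate livers lay between 5.87 and 6.16, inside the spread of the controls.

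Among the targets of the integrated stress response, Trib3, a pseudokinase that ATF4 and CHOP induce, stood close to the limit for dim signals. It had 4.48, 4.50, 4.41 and 4.39 in control, 4.05, 4.28, 4.39 and 4.45 in citrate, and 4.46, 4.39, 4.44 and 4.62 in PVP livers. Citrate replicates 1 and 2 were lowest and PVP replicate 4 was highest. The value was -0.15 with citrate (SE 0.08, limma adjusted p = 0.848), and 0.18 for PVP against citrate (SE 0.08, unadjusted p = 0.0414, adjusted p = 0.346). Chac1, a glutathione-degrading enzyme, had 0.17 with citrate (SE 0.14) and 0.26 with PVP (SE 0.14, adjusted p = 0.326). Ppp1r15b, the constitutive regulator of the eIF2α phosphatase, ranged over 0.60 among the 12 mice.

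The comparison of females with males asked whether the sexes differ in these genes. In limma 0 of 38 members passed the adjusted threshold, against 2.18% of all genes, and 5 had an unadjusted p under 0.05, against 15.3%. Leaving out PVP replicate 2 gave 18, against 14.8% of all genes, and leaving out PVP replicate 4 gave 8, against 13.1%. The median was -0.15 (female minus male), with 27 of 38 below 0, against -0.02 over all genes, of which 57.1% were below 0. It ran from -0.24 without PVP replicate 2 to -0.05 without PVP replicate 1. All 11 Kupffer cell markers were above 0 in this comparison (median 0.71), as were 10 of 10 neutrophil and monocyte markers (median 0.46) and 9 of 10 endothelial markers (median 0.19). Of all markers only the fibroblast gene Lum passed (0.57, limma adjusted p = 0.00894), and the part of these cell types was not tested. Asns, asparagine synthetase, had 4.97, 4.95, 6.51 and 4.61 in control, 4.65, 4.54, 6.32 and 6.23 in citrate, and 4.996, 4.77, 5.04 and 6.17 in PVP livers. The 4 high signals, control replicate 3, citrate replicates 3 and 4 and PVP replicate 4, all came from males, and the highest female stood at 4.996. Control replicate 1 and PVP replicate 3, the other males, stood at 4.97 and 5.04, near the females.

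Asns was -1.12 in females against males (SE 0.28, limma adjusted p = 0.0749). It passed without control replicate 1 (-1.34, adjusted p = 0.0265), without PVP replicate 3 (-1.31, adjusted p = 0.0379) and with the area as a covariate (-1.10, adjusted p = 0.0412). In those fits 294, 309 and 930 of 19985 genes passed, against 435 in the main fit. Ppp1r15a, the stress-induced partner of the same phosphatase (GADD34), was close to the dim limit, with 4.22, 4.45, 4.29 and 4.64 in control livers. Citrate livers had 4.54, 4.60, 4.26 and 4.23, and PVP livers 4.52, 4.52, 4.48 and 4.21. The females lay between 4.45 and 4.64 and 5 of the 6 males between 4.21 and 4.29, with PVP replicate 3 at 4.48. The difference was 0.26 (SE 0.06, adjusted p = 0.0561), and it passed without PVP replicate 3 (0.31, adjusted p = 0.019) and with the area as a covariate (0.26, adjusted p = 0.0299).

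Syvn1, Atf3 and Edem2 also had an unadjusted p under 0.05 between the sexes. The difference of Syvn1 was -0.63, female minus male (SE 0.18, limma adjusted p = 0.122), with a range from 6.31 to 7.00 in females and from 6.68 to 8.07 in males. Atf3 was 0.90 (SE 0.29, adjusted p = 0.167), and Edem2 -0.27 (SE 0.12, adjusted p = 0.29). Edem2 passed without PVP replicate 2 (-0.39, adjusted p = 0.0205), a female that had the highest Edem2 signal of the 12 mice, 8.14. Of 19985 genes 336 passed in that fit. For the effect of PVP in females minus that in males, Hsp90b1 had 0.73 (SE 0.31) and Creld2 2.92 (SE 1.26), each with a limma adjusted p of 1. These were 2 of 38 members at an unadjusted p under 0.05, against 3.62% of all genes, and 0 of 38 passed, where 0 of all genes did. That count of 2 was 14 without PVP replicate 1 (6.04% of all genes), 6 without control replicate 3 (3.63%), and 4 without control replicate 2 (6.91%) or PVP replicate 2 (11% of all genes). It was 1 without control replicate 1 (3.22% of all genes), citrate replicate 1 (3.1%), citrate replicate 2 (3.1%) or PVP replicate 4 (3.71%). It was 0 without control replicate 4 (4.75%) or PVP replicate 3 (3.36%). In males PVP against control gave -2.84 for Creld2 (SE 0.89, adjusted p = 0.528) and in females 0.08 (SE 0.89, adjusted p = 0.973), from 2 mice per mean. At an unadjusted p under 0.05, 8 of 38 members differed in males, 2 higher (3.64% of all genes) and 6 lower (4.37%). In females 2 of 38 did, both lower (8.43% of all genes). Within either sex 0 members passed, where 0 of all genes did, and these counts were not repeated with arrays left out.

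The shared variation was measured as the correlation of each member with Hspa5 over the 12 livers. Of 37 members, 10 had an r above 0.8 (27%), against 70 of 19984 other genes (0.35%), and the median r was 0.55 against 0.06. The median was also 0.55 for 28 other genes of ER entry and glycosylation, 0.46 for 20 other degradation genes and 0.45 for 30 other folding enzymes, with 1, 2 and 1 genes above 0.8. The p-values came from 100000 permutations of the mice, of which 1e-05 is the smallest they can give, and were adjusted over the 19984 genes. Hyou1 had r = 0.96 (rho = 0.94, permutation p = 1e-05 and 3e-05, adjusted p = 0.0333 and 0.12). Creld2 had r = 0.95 (rho = 0.94, permutation p = 1e-05 and 3e-05, adjusted p = 0.0333 and 0.12). These were the closest genes to Hspa5 of the 19984, and 2 of the 8 genes that passed by r, while 0 passed by rho. By rho, even the smallest p that the permutations can give had an adjusted p of 0.12 (Pdia3). The number of permutations thus limits what can pass, and the difference between r and rho was not tested.

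The remaining members above 0.8 did not pass the adjustment over all genes. Pdia3 had r = 0.92 (rho = 0.96, permutation p = 6e-05 and 1e-05, adjusted p = 0.109 and 0.12), and Sel1l r = 0.89 (rho = 0.95, permutation p = 4e-05 and 2e-05, adjusted p = 0.0799 and 0.12). Syvn1, Canx, Dnajc3, Pdia6, Sdf2l1 and Derl3 had r from 0.82 to 0.87. Xbp1 had r = 0.75 (rho = 0.62, permutation p = 0.00509 and 0.0382, adjusted p = 0.401 and 0.737). The values share the array of each mouse, and the part of array quality beyond the values that follow was not tested. Among the markers of 7 cell types other than hepatocytes 0 had an r above 0.8, and the median r of each type lay between -0.24 and 0.23. Of the 10 hepatocyte markers 7 sat at the ceiling in every mouse, so that list says nothing here.

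The mice farthest from the median of Hspa5 were PVP replicates 1 and 4, also the arrays of lowest area. Without them r was 0.96 for Hyou1, 0.99 for Creld2, 0.92 for Pdia3, 0.84 for Sel1l and 0.48 for Xbp1. Within the 6 females r was 0.88 for Hyou1 and 0.86 for Creld2, and within the 6 males it was 0.99 and 0.98. On deviations from the group and sex means, 15 of 37 members were above 0.8 (40.5%), against 0.636% of the other genes. The count of members above 0.8 was 7 without control replicate 1 (0.325% of the other genes) and without citrate replicate 3 (0.485%), the mice with the highest Hspa5. It was 12 without control replicate 4 (0.681%).

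**Figure D4:**
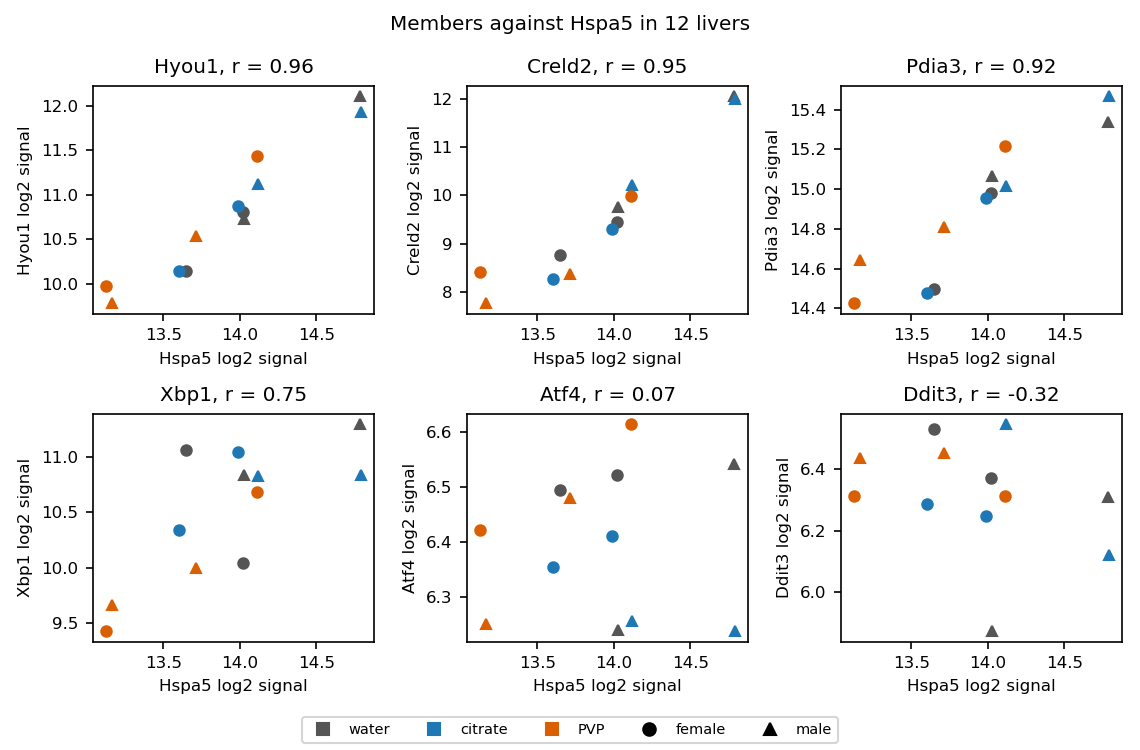
Log2 signal of 6 members (vertical axes) against that of Hspa5 (horizontal axes) in the 12 livers, coloured by group, with circles for females and triangles for males. Hyou1, Creld2 and Pdia3 are higher where Hspa5 is higher, across all groups, with r of 0.96, 0.95 and 0.92. Atf4 and Ddit3 are not, with r of 0.07 and -0.32, though on deviations from the group and sex means Atf4 had 0.74.

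By role, the median r with Hspa5 was 0.82 for 9 chaperones, 0.83 for 3 isomerases, 0.60 for 8 degradation genes and 0.59 for both ER entry genes. It was 0.46 for 6 sensors and membrane factors, -0.12 for 4 transcription factors and -0.16 for 5 stress response targets. Among the chaperones Dnajb9 stood apart with an r of 0.01, and among the degradation genes Herpud1 with 0.07. Without PVP replicates 1 and 4, their r was -0.50 and -0.65. Over all 12 livers Atf4 had 0.07, Ddit3 -0.32 and Atf3 -0.51. On deviations from the group and sex means these were 0.74 for Atf4, -0.18 for Ddit3 and -0.15 for Atf3.

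The ERSE and the shared variation were then set side by side. The 8 members other than Hspa5 with an exact ERSE had a median r with Hspa5 of 0.84, from 0.62 for Calr to 0.95 for Creld2, and 6 of 8 were above 0.8. The 25 measured members with a window and no exact ERSE had a median of 0.43, with 3 above 0.8. Of these 3, Pdia3 and Sel1l had a match with 1 mismatch allowed, and Sdf2l1 had none. Ddit3, Derl2 and Herpud1 had such a match too, with r of -0.32, 0.43 and 0.07. The carriers of an exact ERSE held no sensor, transcription factor or stress response target. The part of role in the contrast was not tested. Among chaperones and isomerases alone, those with an exact ERSE ran from 0.62 to 0.95. Those with a window and no exact ERSE were Dnajb9 with 0.01, P4hb 0.49, Dnajb11 0.76 (with an ERSE-II), Sdf2l1 0.82 and Pdia3 0.92. Outside the list, 12 tested genes carried an ERSE and their median was 0.14, with 0 above 0.8. The highest of them were Ero1b, an ER oxidase, with 0.76 and the mannosyltransferase gene Alg12 with 0.67, whose window overlaps that of Creld2 by 173 bases. Herpud1, printed above with an ERSE-II and a C/EBP-ATF site, and Asns, printed with its C/EBP-ATF site, had r of 0.07 and 0.18.

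**Figure D5:**
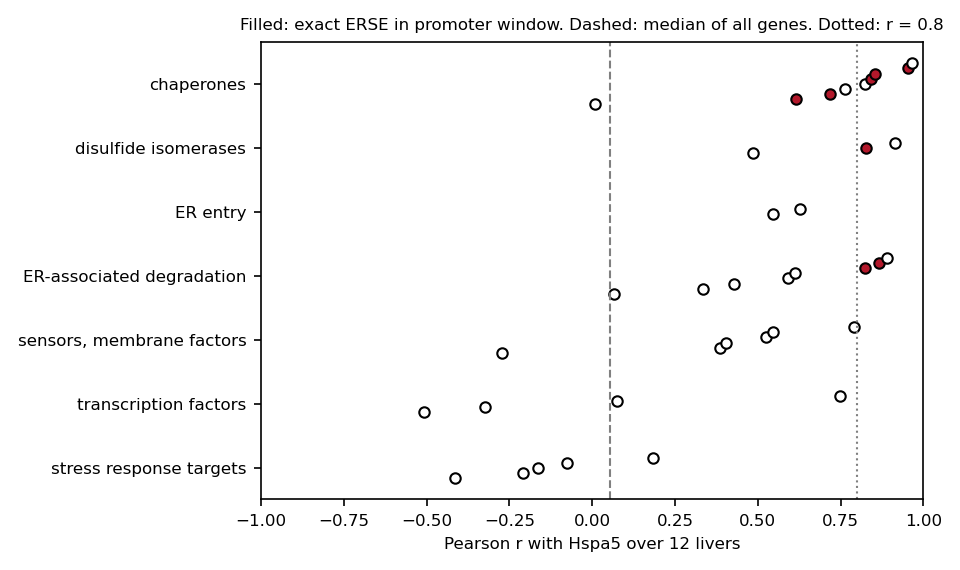
Pearson r with Hspa5 over the 12 livers (horizontal axis) for 37 members by role; filled points carry an exact ERSE, open points have none or no window (Hyou1, Derl1, Atf6 and Ppp1r15b), the dashed line is the median of all other genes, 0.06, and the dotted line marks 0.8. The filled points lie between 0.62 and 0.95, and the stress response targets between -0.41 and 0.18.

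The other genes of these pathways, in 5 lists, had 0 genes past the adjusted threshold with either coating. At an unadjusted p under 0.05 in limma, 1 of 30 other folding enzymes was higher with citrate, and 3 were higher and 1 lower with PVP. Of 28 other genes of ER entry and glycosylation the counts were 0 with citrate, and 2 higher and 3 lower with PVP. Of 20 other degradation genes 0 differed with citrate and 4 were lower with PVP, with a median of -0.15. Of all genes 2.75% were higher and 3.82% lower with citrate at that p, and 8.05% and 12.2% with PVP.

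In these lists Txndc11, a disulfide oxidoreductase, had 7.22 ± 0.10 in control, 7.42 ± 0.04 in citrate and 7.51 ± 0.04 in PVP livers (SD, n = 4 each). Its differences were 0.19 with citrate and 0.29 with PVP (SE 0.07 for both; limma adjusted p = 0.623 and 0.119). Pdia5 and Qsox1, both thiol oxidoreductases, had 0.84 and 0.86 with PVP (SE 0.34 and 0.35, adjusted p = 0.209 for both). Their SDs were 0.79 and 0.94 in PVP livers, against 0.23 and 0.19 in control livers. The glucosidase gene Mogs had -0.36 with PVP (adjusted p = 0.176). Sec11c and Ssr4, of the signal peptidase and translocon-associated complexes, had 0.39 and 0.35, and Srp68 and Stt3b, of signal recognition and glycosylation, -0.64 and -0.47. Ubxn4, Nploc4, Rnf5 and Herpud2, of degradation, had -0.74, -0.66, -0.41 and -0.27 with PVP, with adjusted p-values from 0.126 to 0.209.

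Among 27 further targets of the integrated stress response, 3 were higher and 1 lower with citrate, and 1 higher and 5 lower with PVP, at an unadjusted p under 0.05. Slc38a2, an amino acid transporter, was at 13.62 ± 0.92 in control, 15.07 ± 0.50 in citrate and 14.90 ± 0.35 in PVP livers (SD, n = 4 each). Its differences of 1.45 and 1.28 did not pass (SE 0.33 for both; limma adjusted p = 0.293 and 0.119). The transfer RNA synthetase genes Iars and Tars had -0.65 and -0.88 with PVP (adjusted p = 0.0984 and 0.128) and 0.12 and -0.21 with citrate. Atf5, a relative of ATF4, had -0.51 with citrate (SE 0.16, adjusted p = 0.513).

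Of 20 other regulators of the response, 0 were higher and 2 lower with citrate, and 1 higher and 5 lower with PVP, at an unadjusted p under 0.05. Nfyc, a subunit of the factor NF-Y that binds the CCAAT part of the ERSE, had -0.66 with PVP (SE 0.14, limma adjusted p = 0.0881) and -0.32 with citrate (SE 0.14, adjusted p = 0.753). Nfya, another subunit, had -0.26 with PVP (adjusted p = 0.165). The eIF2α kinase gene Eif2ak1 had -0.57 and the pore protein gene Bak1 -0.47 with PVP (adjusted p = 0.184 and 0.153). None of these differences passed the adjusted threshold.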

How the data were processed

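Total RNA of 12 livers was labelled with biotin and measured on Affymetrix whole-transcript arrays, per the labels' protocols. The deposited table held log2 signals of 72688 probe sets, and the submitters' processing notes name RMA and Transcriptome Analysis Console 4.0.1.36 without their roles or order. The genome build was not given in the sources used here. The values ended at a ceiling of 19.93, which no member reached.

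Each gene took the probe set of highest mean among those naming it alone. Genes whose mean exceeded the 40th percentile of all probe sets, 3.93, were tested with limma 3.58.1 (R 4.3.3), with terms for group and sex and a spread moderated along the mean. A fit of 6 means of group by sex gave the effects within each sex and their difference. Tests were two-sided, adjusted by Benjamini and Hochberg over 19985 genes with a threshold of 0.05. The scripts were tested on simulated data. Alternatives were 23 other settings, 12 of which left out 1 array. Same-numbered mice were not treated as pairs, since no label ties a number to a shared litter, batch or day and the correlations of their deviations ran from -0.44 to 0.23. All members are named. Values in every mouse are given for Hspa5, Xbp1, Atf4, Ddit3 and the 4 members of smallest p per comparison, and for Creld2, Hyou1 and Pdia3, chosen after their values were seen. Up to 4 genes of each other list are named by smallest p against control. The members, lists and the correlation with Hspa5 were chosen with earlier results of these data known.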

Additional observations from a re-analysis of the deposited data

Results flagged for a closer look

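Of 114 sets of 4 mice (38 members in 3 groups), 8 held a mouse whose gap to its neighbour was, as a share of the range of the group, above the critical value of Dixon, where chance gives about 1 in 20 such sets. Calr stood at 14.79 in control replicate 4, against 15.32 to 15.39 in the other controls, and at 14.95 in citrate replicate 2, against 15.40 to 15.44. PVP replicate 1 was low in Herpud1, 13.93 against 15.51 to 15.65, and in Derl2, 6.52 against 7.26 to 7.34. Atf4 was low in control replicate 3, 6.24 against 6.49 to 6.54, and Chac1 in control replicate 1, 4.42 against 4.67 to 4.72. Ppp1r15a was low in PVP replicate 4, 4.21 against 4.48 to 4.52, and Ppp1r15b was high in PVP replicate 3, 9.63 against 9.31 to 9.34.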

How the results depend on the processing

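No member passed the adjusted threshold against control or between coatings under any of 23 alternatives. The counts below are members at an unadjusted p under 0.05. With citrate the count of 0 became 1 under quantile normalization (6.72% of all genes) and without the 2 arrays of lowest area (8.19%). It was also 1 with only the compared groups (8.33%). When 1 array was left out it was 0 to 2, with 2 without citrate replicate 3 (5.53%). With PVP the count of 5 was 3 with the replicate block (17.3% of all genes) and with only the compared groups (14.5%). When 1 array was left out it was 3 to 10. It was 10 without PVP replicate 2 (23.6%), and 3 without control replicate 1 (17.7%), control replicate 3 (14.5%) or PVP replicate 4 (13.8%). Between coatings the count of 4 was 1 with the replicate block (11.5% of all genes) and 2 without a sex term (12.5%). It was 1 to 11 when 1 array was left out (11 without PVP replicate 2, 17.5% of all genes). Without the arrays of lowest area the median between coatings was 0.0662. Between the sexes, with the area added as a covariate, 2 members passed, where 930 of 19985 genes did. The number was 0 to 2 when 1 array was left out, where 245 to 605 of all genes passed. The unadjusted count was 4 to 18 (18 without PVP replicate 2, 14.8% of all genes). The counts for the sex difference in effect were 1 to 2 for citrate (1.66% to 4.96% of all genes). They were 0 to 14 for PVP (3.05% to 11% of all genes), with 14 without PVP replicate 1 (6.04%). With the replicate block 0 members passed in these comparisons, the sex median was -0.2754 and its unadjusted count 4 (9.74% of all genes). Over all genes the calls then went from 435 to 56 between the sexes, from 8 to 0 with PVP and from 1 to 0 with citrate. When 1 array was left out, the calls over all genes were 0 to 6 with citrate (6 without PVP replicate 1), 1 to 61 with PVP (61 without PVP replicate 3) and 245 to 605 between the sexes. The count of members correlated with Hspa5 above 0.8 was 8 under quantile normalization (0.29% of the other genes). It was 7 to 12 when 1 array was left out, where 0.26% to 0.726% of the other genes were above 0.8. These alternatives were added after the data were seen. With 4 mice per group and these SDs, differences in the most variable genes have wide intervals, -3.17 to 0.41 for Creld2 with PVP.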

Other observations

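Of the 20 genes closest to Hspa5 over the 12 livers, 5 were members and 15 were not, and of the 15 only Srprb was in another list. Gfpt1, the first enzyme of the hexosamine pathway that feeds glycosylation, had an r of 0.93, and Magt1, a subunit of the oligosaccharyltransferase, 0.92. Dhdds, which makes the lipid carrier of glycans, had 0.88, as did Srprb, of the signal recognition particle receptor, and Sec24d, of the vesicles that leave the ER, had 0.87. Tsr3, a ribosomal RNA modification enzyme, had 0.93, and the lipid transfer gene Osbp 0.91. The remaining 8 were Gm5553, Phykpl, Nme6, Cdk7, Gm11270 and the pseudogenes Rpl31-ps1, Rpl31-ps17 and Rpl31-ps18, with r from 0.86 to 0.92. These are descriptions over 12 mice that share 1 array each.

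In the lists of other ER and stress genes, 3 of 125 genes differed between the sexes past the adjusted threshold of limma, 2.4% against 2.18% of all genes, a share near the background. Fkbp11, an ER prolyl isomerase, was lower in females, at -0.77 in log2 (adjusted p = 0.0436) and Sel1l3, a relative of Sel1l, at -0.62 (adjusted p = 0.0356). Vldlr, a lipoprotein receptor that ATF4 can induce, was higher in females, at 1.05 (adjusted p = 0.0322).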
